A study of Bos taurus with 2 samples.

Results

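The 10 genes described here encode proteins of myoblast fusion, cadherin adhesion and the muscle cell membrane. They are MYMK, JAM3, CDON, NEO1, CDH2, CDH11, CDH15, CAV3, DYSF and MYOF, and they were chosen by name from the feature list of 21867 bovine genes. Of these, 16816 genes had at least 1 unique molecular identifier (UMI, a tag that lets each captured mRNA molecule be counted once), including all 10 genes described. The cells were cultured satellite cells, the stem cells of skeletal muscle, from the longissimus muscle of 1 Holstein bull calf that was 2 weeks old. They were isolated by pronase digestion and differential centrifugation, with no sort on a surface marker, and were cultured for a week in growth medium with 10% fetal bovine serum, without any treatment. Single-cell RNA sequencing (scRNA-seq) was performed on 2 libraries of these cells, called replicates 1 and 2, and there was no control group. Both libraries came from the same animal, so the spread between them is technical. The clusters compared were formed by the authors from the same counts, so a p-value between clusters is not independent evidence.

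Before fusing, myoblasts leave the cell cycle, recognize each other, align and adhere, and then merge their membranes into a multinucleated fiber. Cadherins on adjacent cells bind each other in the presence of calcium, CDON acts as a coreceptor beside them, and the transmembrane protein myomaker (MYMK) is required for the membranes to merge. CAV3 forms the caveolae of muscle membranes, while the ferlins DYSF and MYOF take part in membrane repair and membrane fusion.

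The combined libraries held 19096 cells in 15 clusters. Replicate 1 had 9939 cells and 145631299 UMIs, with a median of 14626 UMIs per cell, and replicate 2 had 9157 cells and 137818568 UMIs, with a median of 15206. There were 27 barcodes present in both libraries. In the study, an inferred trajectory proposed 2 possible myogenic branches for 7 clusters. On the first branch, cells with PAX3 mRNA (cluster 8) were followed by MYF5-enriched myoblasts (cluster 1), MYOG-enriched cells (cluster 3) and more differentiated myocytes (cluster 12). On the second branch, cluster 8 was followed by cluster 5, by PAX7-enriched cells (cluster 4) and by MYOD1-enriched myoblasts (cluster 2). PAX7 had 176 UMIs and PAX3 had 316 UMIs in all cells together, so these defining satellite cell markers were close to absent. Clusters 7 and 9 were called fibro-adipogenic progenitors in the study, with PDGFRA, a receptor of these progenitors, as the marker of both. Its other evidence was PPARG, ZNF423 and lipogenesis terms in cluster 9, and no markers of mature adipocytes in either cluster. PDGFRA was at 1.48 UMIs per 10000 UMIs in cluster 7 and 1.58 in cluster 9, and at 0.267 in cluster 8, while the adipogenic marker PPARG was highest in cluster 9, at 0.288. The sum of PDGFRA, DCN and LUM was 15.1 in cluster 7 and 13.8 in cluster 9, and 20.9 in cluster 8, of which DCN was 14.96. Clusters 9 and 7 are called by their numbers below. Cells of clusters 7, 13, 14 and 15 were shallow, with medians of 1389, 1631, 2513.5 and 647 UMIs, and the other 11 clusters had medians from 5398.5 to 23011.

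Expression levels are given as UMIs per 10000 UMIs of the same cluster, first for replicate 1 and then for replicate 2. Levels of different genes are not compared with each other, because 3′ UMI counts carry no measure per length. Of the 10 genes, 4 had their highest level in cluster 12 (MYMK, JAM3, CAV3 and DYSF), 5 in the shallow cluster 7 (CDH2, CDH15, CDON, NEO1 and MYOF), and CDH11 had its highest level in cluster 9. Among the 11 deeper clusters, cluster 12 was highest for 7 of the 10 genes, and cluster 9 for CDH2 and CDH11.

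**Figure D1:**
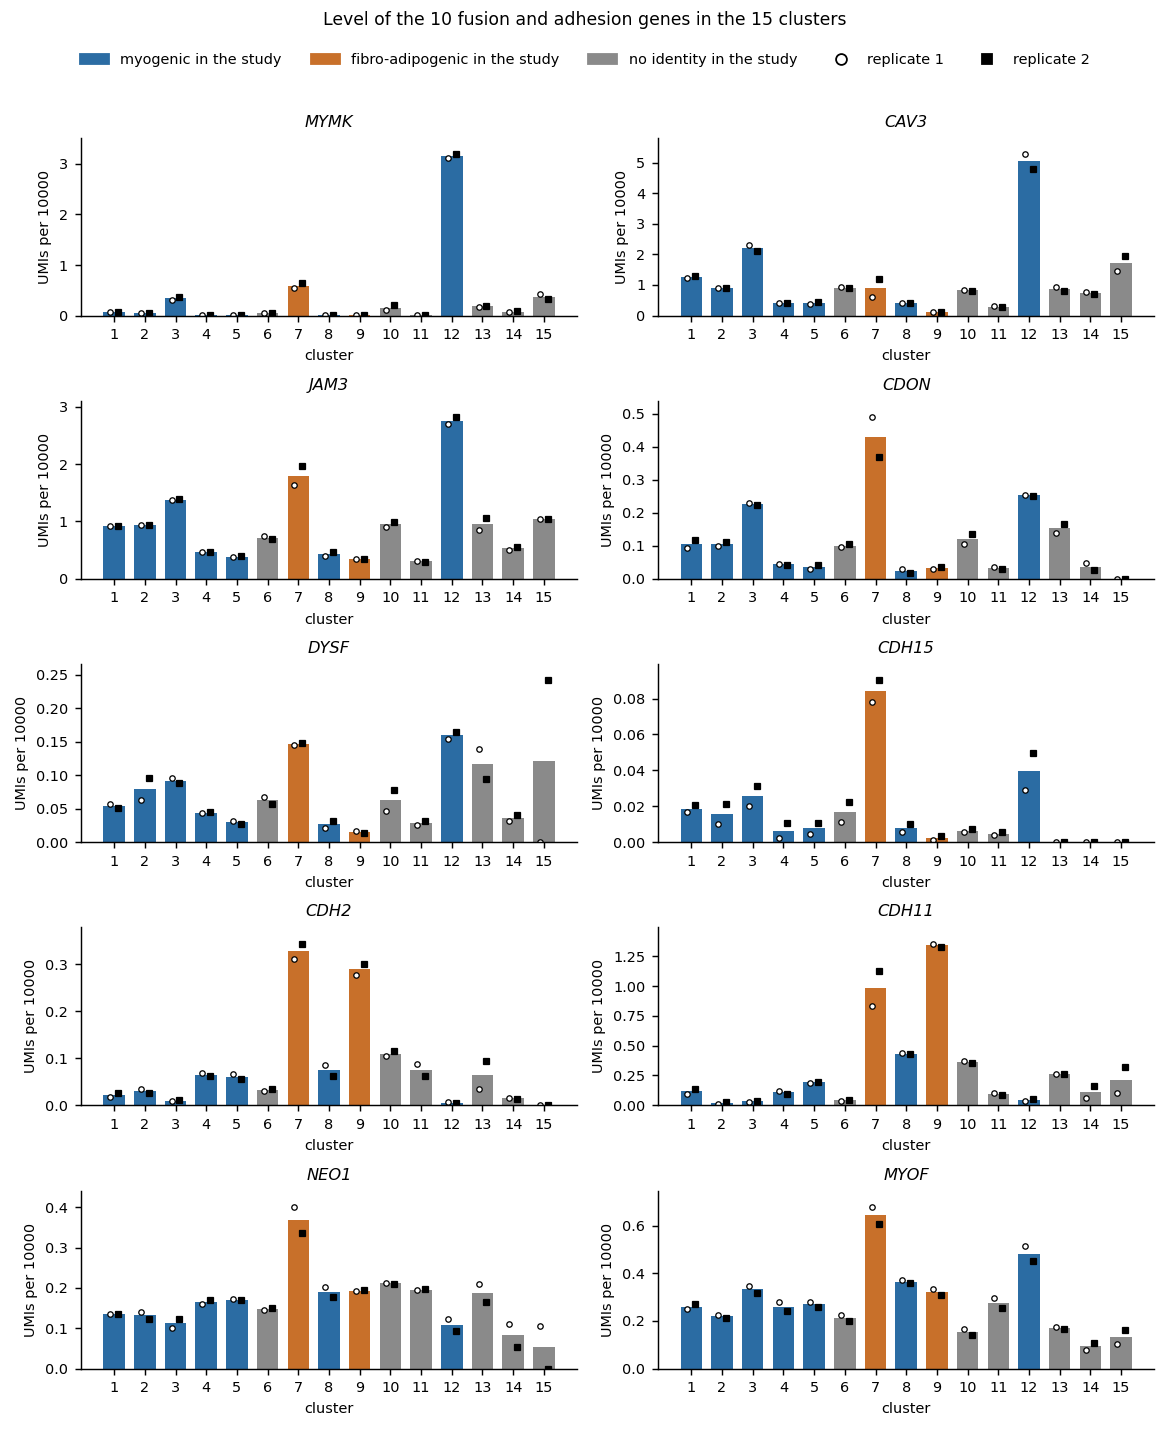
Level of each gene (vertical axis, UMIs per 10000 UMIs) in the 15 clusters (horizontal axis). Bars are means of the 2 libraries, circles are replicate 1 and squares are replicate 2, and each panel has its own scale. MYMK, CAV3 and JAM3 are highest in cluster 12, CDH11 is highest in cluster 9, and NEO1 varies least among the deeper clusters.

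MYMK (ENSBTAG00000013242), the membrane activator of myoblast fusion, had the steepest distribution of the 10 genes. Its level in cluster 12 was 3.11 in replicate 1 and 3.20 in replicate 2. In the shallow cluster 7 it was second highest, at 0.547 and 0.640, from 127 UMIs. In cluster 3 it was 0.313 and 0.373, and in cluster 1 it was 0.0640 and 0.0794. Both libraries thus gave the same order of these clusters with no overlap. In cluster 8 MYMK was at 0.00906 and 0.00491, from 12 UMIs, and the lowest level was in cluster 11, from 8 UMIs. The highest and lowest means among the 11 deeper clusters differed 619-fold, although the denominator of this ratio rests on those 8 UMIs. Cluster 12 held 3.28% of the cells and 64.3% of the 6095 UMIs of MYMK, and cluster 3 held 19.8% of them. The authors' deposited average of MYMK in cluster 12 was 4.70 UMIs per cell after scaling to a common total. In the order of the deeper clusters, neighbours did not overlap from cluster 12 down to cluster 9, while clusters 9, 4 and 5, and clusters 8 and 11, could not be separated by their libraries.

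JAM3 (ENSBTAG00000003176) encodes a junctional adhesion molecule of the immunoglobulin superfamily that binds JAM2 on the neighbouring cell. Its level was 2.69 and 2.82 in cluster 12, and it was 1.64 and 1.96 in cluster 7. Cluster 3 followed, at 1.37 and 1.39. JAM3 was thus higher in cluster 12 than in any other cluster in both libraries, but it was also detected everywhere, and its lowest level in cluster 11 was 0.304 on average. The range among the deeper clusters was 9.08-fold.

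CAV3 (ENSBTAG00000022699), the muscle isoform of caveolin, had levels of 5.29 and 4.80 in cluster 12. It was at 2.29 and 2.12 in cluster 3 and at 1.23 and 1.28 in cluster 1. Clusters 12, 3 and 1 of the first branch, those with myoblast or myocyte identity, therefore followed each other in the same order as for MYMK, without overlap. The means of clusters 8, 5 and 4 lay together, from 0.406 to 0.415, and their neighbours in the order overlapped. The lowest level was in cluster 9, at 0.110 and 0.108, so that the range among the deeper clusters was 46.2-fold.

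DYSF (ENSBTAG00000013290) encodes dysferlin, a membrane repair protein of muscle fibers. Its levels were 0.154 and 0.165 in cluster 12, 0.145 and 0.148 in the shallow cluster 7, and 0.0951 and 0.0877 in cluster 3. DYSF was lowest in cluster 9, at 0.0162 and 0.0140 from 40 UMIs. Its levels in clusters 3, 2, 6, 10 and 1 formed a chain in which each overlapped with the next. When cells with fewer than 2000 UMIs were left out, the highest level of DYSF moved from cluster 12 to cluster 7.

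MYOF (ENSBTAG00000016918) encodes myoferlin, a relative of dysferlin found in myoblasts that are about to fuse. It was expressed in every cluster, and among the deeper ones it ranged 3.17-fold. Its levels were 0.680 and 0.607 in cluster 7, 0.514 and 0.452 in cluster 12 and 0.373 and 0.358 in cluster 8. Unlike the 4 genes above, MYOF was therefore higher in the PAX3-enriched cluster 8 than in clusters 1, 2, 4 and 5, in both libraries.

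CDON (ENSBTAG00000009315), a cell surface protein that associates with cadherins and receives signals for myogenic differentiation, had levels of 0.255 and 0.252 in cluster 12 and 0.231 and 0.224 in cluster 3. In the shallow cluster 7, CDON was higher, at 0.491 and 0.369, from 89 UMIs. Its levels were lowest in cluster 8 among the deeper clusters, at 0.0306 and 0.0184. Cluster 15 had no UMI of CDON. NEO1 (ENSBTAG00000004990) encodes neogenin, a netrin and RGM receptor related to DCC that has been linked to CDON in myoblasts. In contrast to CDON, it was nearly flat. Its highest level was in cluster 7, at 0.402 and 0.336, and among the deeper clusters its means ranged only 1.97-fold, from 0.107 in cluster 12 to 0.212 in cluster 10.

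Of the 3 classical cadherins of the group, CDH11 (ENSBTAG00000032092), a cadherin typical of mesenchymal cells, had levels of 1.36 and 1.33 in cluster 9. It was at 0.836 and 1.12 in cluster 7 and at 0.437 and 0.428 in cluster 8. CDH11 was at only 0.0390 and 0.0495 in cluster 12, and its lowest mean, 0.0229, was in cluster 2. Cluster 9 held 53.7% of the UMIs of CDH11, and the range among the deeper clusters was 58.8-fold.

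CDH2 (ENSBTAG00000021190), or N-cadherin, had levels of 0.312 and 0.345 in cluster 7 and 0.278 and 0.301 in cluster 9. These clusters did not overlap with the next, cluster 10, at 0.105 and 0.115. In cluster 3 CDH2 was at 0.00845 and 0.0116, and in cluster 12 it was at 0.00650 and 0.00479, from 7 UMIs in 12408491. The myocyte clusters thus had the lowest levels of CDH2 among the deeper clusters. In cluster 7, ribosomal protein mRNAs were 9.02% of the UMIs, against 22.3% to 30.9% in the other clusters, and with UMIs outside ribosomal protein genes as the denominator the highest level of CDH2 moved to cluster 9.

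CDH15 (ENSBTAG00000011530), or M-cadherin, a cadherin of satellite cells and myoblasts, was the scarcest of the 10 genes, with 404 UMIs. Of these, 152 were in replicate 1 and 252 in replicate 2. This difference between the libraries was 0.81 on the log2 scale, and only 1.80% of the 11240 genes with at least 200 UMIs differed as much between the libraries. CDH15 was at 0.0293 and 0.0495 in cluster 12, and at 0.0201 and 0.0310 in cluster 3. Its level in cluster 7, at 0.0781 and 0.0902, rested on 18 UMIs, and in cluster 9 it had 6 UMIs. CDH15 followed the same order as CAV3 in clusters 12, 3 and 1, but neighbours in this order overlapped between the libraries.

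Cluster 7 had high levels of genes that were apart elsewhere, such as MYMK and CDH11. Within this cluster, 73 of the 1298 cells had a UMI of MYMK and 149 had a UMI of CDH11, and 2 cells had both. CDH11 was detected in 2.74% (95% exact binomial interval 0.334% to 9.55%) of the cells with MYMK and in 12% (10.2% to 13.95%) of those without. MYH3, the embryonic myosin heavy chain, was detected in 68.5% (56.6% to 78.9%) of the cells with MYMK and in 7.92% (6.47% to 9.57%) of those without. PDGFRA was detected in 47.7% (39.4% to 56.0%) of the cells with CDH11 and in 11.2% (9.46% to 13.2%) of those without. The cells with either gene were deeper than the rest, with medians of 2047 UMIs for those with MYMK, against 1375 without, and 1759 for those with CDH11, against 1344 without. These shares were not adjusted for depth, and their intervals cover counting error only.

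To compare clusters with a measure of error, UMIs were summed per cluster and library and tested with the quasi-likelihood F-test of edgeR, and p-values were adjusted over all genes tested by the method of Benjamini and Hochberg. Genes with an adjusted p below 0.05 were called. The value after ± is a standard error (SE) worked back from the test, as the size of the log2 difference divided by the square root of F. It does not measure the spread between the 2 libraries, and it may be too small where few UMIs were counted. Comparisons that have a cluster in common share its sums, so their results are not independent of each other.

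In the study, the step from cluster 8 to cluster 1 led from PAX3-enriched cells to MYF5-enriched myoblasts. The mean level of MYF5 was however alike in both, at 1.57 in cluster 8 and 1.55 in cluster 1. MYOD1 was at 0.892 and 5.18, and DES at 0.976 and 5.01. At this step all 10 genes were tested and all 10 were called, 6 as higher and 4 as lower. Of all genes tested, 34.1% were called, 17.2% as higher and 16.9% as lower. MYMK was 10.3-fold higher in cluster 1, with a log2 difference of 3.36 ± 0.31 (SE worked back from F, n = 2 libraries per cluster). CDON was higher by 2.12 ± 0.24, CAV3 by 1.63 ± 0.06, CDH15 by 1.30 ± 0.40, JAM3 by 1.12 ± 0.07 and DYSF by 1.05 ± 0.24. These 6 genes were higher in both libraries. CDH11 fell by 1.87 ± 0.16 and CDH2 fell by 1.79 ± 0.26, while NEO1 fell by 0.46 ± 0.11 and MYOF fell by 0.45 ± 0.08. The calls of CDH15, NEO1 and DYSF were lost with DESeq2, with adjusted p of 0.235, 0.110 and 0.0618, that of CDH15 also with 1 fit over all clusters (adjusted p = 0.0962), and that of NEO1 also with clusters formed without the 10 genes (adjusted p = 0.0601). With clusters formed without the 10 genes, the differences of MYMK and CDH11 were 2.43 and −1.09. The cluster matched to cluster 1 there had 1153 cells instead of 2493, so the cells compared differed too. For MYMK the difference was 4.04 without replicate 1 and 2.87 without replicate 2, from 4 and 8 UMIs in cluster 8.

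From cluster 1 to cluster 3, where MYOG, the regulator of terminal differentiation, becomes enriched, 6 of the 10 genes were higher and 2 were lower. Of all genes tested, 40.2% were called, 21.1% as higher and 19.1% as lower. MYMK was 4.89-fold higher (log2 difference 2.29 ± 0.12, adjusted p = 2.63e-05). CDON was higher by 1.15 ± 0.11 on the log2 scale, CAV3 by 0.85 ± 0.06, DYSF by 0.80 ± 0.14, JAM3 by 0.63 ± 0.04 and MYOF by 0.39 ± 0.08. MYOF, which fell between clusters 8 and 1, was thus higher again in cluster 3. CDH11 fell by 1.79 ± 0.23 (adjusted p = 0.000964) and CDH2 fell by 1.04 ± 0.33 (adjusted p = 0.0411). The call of CDH2 was lost with DESeq2 (adjusted p = 0.209) and with clusters formed without the 10 genes (−0.40, adjusted p = 0.396), where the difference of MYMK was 3.05. CDH15 (0.48 ± 0.28) and NEO1 (−0.24 ± 0.11) did not pass the threshold, and NEO1 passed it when the library was a block (adjusted p = 0.0378).

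From cluster 3 to cluster 12, 5 of 9 genes tested were higher and 0 were lower. Of all genes tested, 33.8% were called, 18.2% as higher and 15.6% as lower. With DESeq2 and at an unadjusted p below 0.05, 0 were lower as well. MYMK was 9.87-fold higher in cluster 12, with a log2 difference of 3.30 ± 0.08 (adjusted p = 3.53e-07). The study had already reported MYMK as upregulated in clusters 3 and 12, among the genes by which it named them myocytes. The differences of MYMK at this step and the one before are therefore not independent of these names. CAV3 was higher by 1.29 ± 0.07, JAM3 by 1.09 ± 0.05, DYSF by 0.90 ± 0.13 and MYOF by 0.63 ± 0.10. MYMK, CAV3, JAM3 and DYSF were thus higher at each of the 3 steps of this branch. CDH15 (0.73 ± 0.34), CDH11 (0.54 ± 0.24), CDON (0.25 ± 0.09) and NEO1 (0.04 ± 0.18) did not pass the threshold. With the library as a block, CDH15 and CDON passed it, with adjusted p of 0.0218 and 0.0385. CDH2, with 7 UMIs in cluster 12 and 35 in cluster 3, did not pass the filter on low counts and was not tested. The median log2 difference of the 9 genes was 0.73, and that of all genes tested was −0.02.

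**Figure D2:**
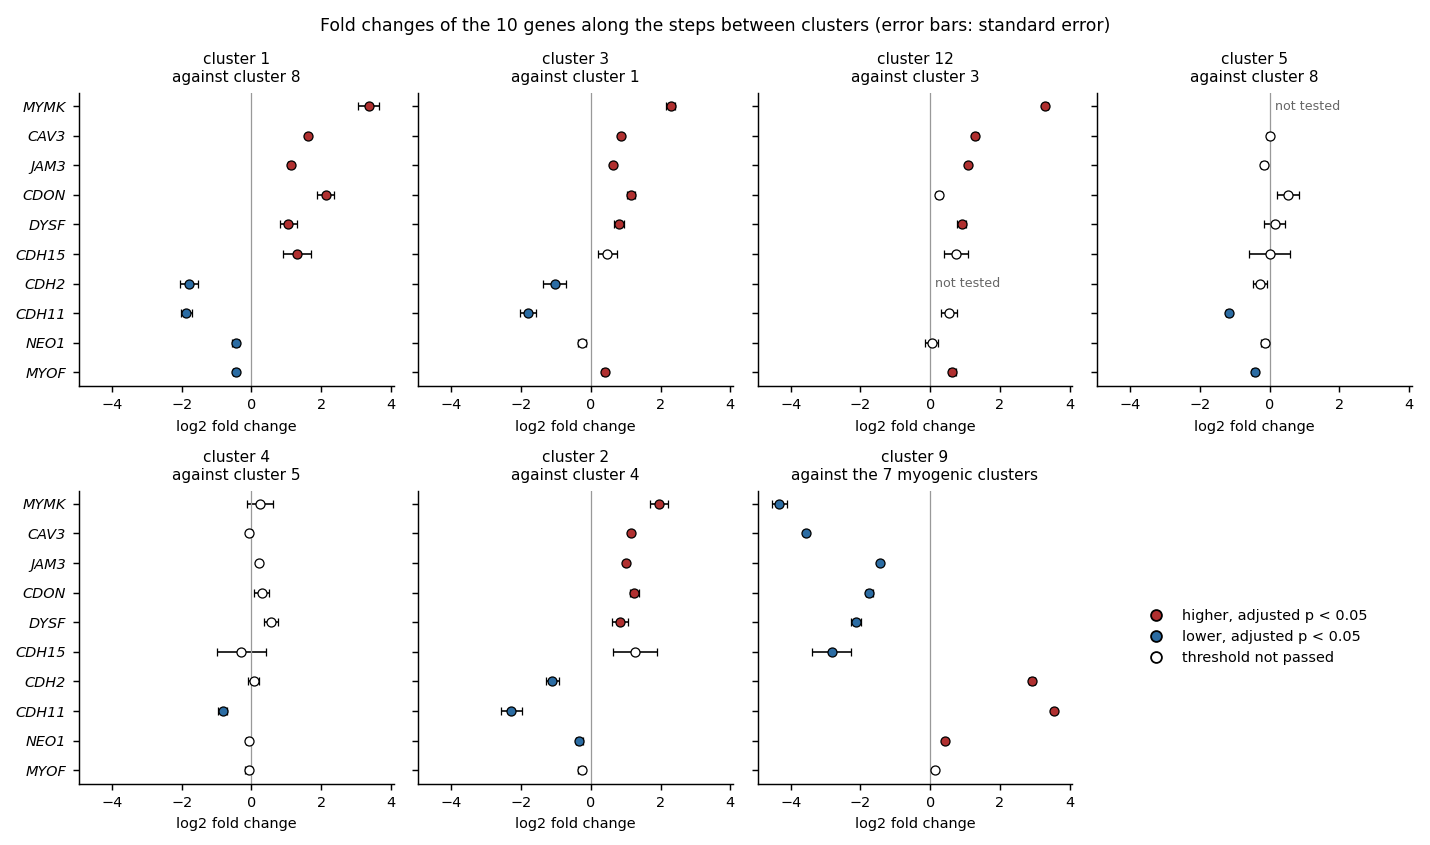
Log2 fold change of each gene (horizontal axis) with its standard error, worked back from the F-test, in the 7 comparisons of clusters. Red symbols are higher and blue symbols lower in the first cluster at an adjusted p below 0.05, white symbols did not pass it, and an error bar that cannot be seen is shorter than its symbol. MYMK, CAV3 and JAM3 are higher at each step from cluster 8 to 1, 3 and 12, and CDH11 is lower at each step from cluster 8 to 5, 4 and 2.

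On the second branch, between clusters 8 and 5, 2 of 9 genes tested were lower and 0 were higher. Of all genes tested, 28.5% were called, 16.3% as higher and 12.2% as lower. CDH11 fell by 1.17 ± 0.08 on the log2 scale and MYOF fell by 0.43 ± 0.08. The call of MYOF was lost with DESeq2 (adjusted p = 0.0546), and with either tool 0 genes were higher, also at an unadjusted p below 0.05. MYMK, with 25 UMIs in cluster 5 and 12 in cluster 8, was not tested. Between clusters 5 and 4, CDH11 fell by 0.83 ± 0.12 (adjusted p = 0.00445) and was the only gene called of 10 tested. Of all genes tested, 16.4% were called, 9.16% as higher and 7.28% as lower. At an unadjusted p below 0.05, 2 genes were higher, and with DESeq2 0 were. These were JAM3 (0.22 ± 0.06) and DYSF (0.56 ± 0.20), which passed the threshold with the library as a block, with adjusted p of 0.00314 and 0.0390.

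In the study, cluster 4 was named PAX7-enriched and cluster 2 MYOD1-enriched, although PAX7 had only 39 UMIs in cluster 4 and 29 in cluster 2. From cluster 4 to cluster 2, 5 genes were higher and 3 were lower of 10 tested. Of all genes tested, 30.2% were called, 14.5% as higher and 15.7% as lower. MYMK was higher by 1.95 ± 0.25 on the log2 scale, CDON by 1.25 ± 0.13, CAV3 by 1.14 ± 0.05, JAM3 by 1.02 ± 0.05 and DYSF by 0.84 ± 0.22. These 5 genes were also higher from cluster 8 to cluster 1. CDH11 fell by 2.28 ± 0.31, CDH2 fell by 1.10 ± 0.19 and NEO1 fell by 0.33 ± 0.10. The difference of CDH11 was −1.64 without replicate 1 and −3.13 without replicate 2. The call of NEO1 was lost with DESeq2 (adjusted p = 0.273), without a filter on low counts (0.0920) and without doublets (0.0526), and that of DYSF without the filter (0.0517). With the library as a block, CDH15 (1.26 ± 0.64) and MYOF (−0.27 ± 0.09) passed the threshold too, with adjusted p of 0.00511 and 0.00188.

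Cluster 9 was compared with the 7 myogenic clusters summed. Of the 10 genes, 3 were higher and 6 were lower in cluster 9, where 56.5% of all genes tested were called, 28.9% as higher and 27.6% as lower. CDH11 was 11.7-fold higher (log2 difference 3.54 ± 0.06, adjusted p = 4.33e-06) and CDH2 was 7.62-fold higher (2.93 ± 0.09, adjusted p = 1.43e-05). NEO1 was higher by 0.41 ± 0.06. MYMK fell by 4.33 ± 0.21 on the log2 scale, CAV3 fell by 3.56 ± 0.06, CDH15 fell by 2.83 ± 0.56, DYSF fell by 2.13 ± 0.15, CDON fell by 1.74 ± 0.11 and JAM3 fell by 1.44 ± 0.04. The mesenchymal and N-cadherins were thus opposite to M-cadherin in this comparison. MYOF did not pass the threshold (0.14 ± 0.07). The sums are weighted by UMIs, and cluster 12 held 64.3% of the UMIs of MYMK. The mean level of MYMK in cluster 9 (0.0140) was not below those of clusters 4 (0.0121), 5 and 8 (0.00698). CDON was higher in cluster 9 (0.0336) than in cluster 8 (0.0245), and the NEO1 levels of these clusters overlapped between the libraries. The means of CAV3, DYSF, JAM3 and CDH15 were lower, and those of CDH11 and CDH2 higher, in cluster 9 than in each myogenic cluster. Scrublet, which scores likely doublets, marked 14.4% of the cells of cluster 9, and without them the level of MYMK in cluster 9 was 0.00844, instead of 0.0140. The level of CAV3 was 0.0393, instead of 0.109, and that of CDH15 was 0.000510, instead of 0.00235. The log2 differences without doublets were −5.13 for MYMK, −5.08 for CAV3, −5.06 for CDH15 and −2.73 for DYSF. That of CDH15 rests on fewer UMIs than the 6 it had in all cells of cluster 9. That of MYMK was −3.68 with clusters formed without the 10 genes, −5.08 without replicate 1 and −3.85 without replicate 2. With 1 fit over all clusters it was −2.15. That fit gives the 7 myogenic clusters equal weight on the log scale, so this value is another quantity than the difference from their sums.

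The share of cells with at least 1 UMI of a gene depends on depth, so each cell was thinned to 5000 UMIs and 3100 shallower cells were left out. At this depth MYMK was detected in 69.8% (95% exact binomial interval 66.0% to 73.4%) of 613 cells of cluster 12, in 12.8% (11.3% to 14.3%) of cluster 3 and in 2.60% (2.01% to 3.31%) of cluster 1. In cluster 9 the share was 0.833% (0.382% to 1.58%), and the shares in cluster 8, at 0.162%, did not exceed it. Without thinning, 94.3% of the cells of cluster 12 (median 19113 UMIs) and 2.78% of cluster 9 (median 23011 UMIs) had a UMI of MYMK. MYMK was thus found in most cells of cluster 12 and in a minority of cluster 3. The median cell of cluster 12 had 5 UMIs of MYMK, and the highest count was 36.

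CAV3 was detected in 87.4%, 61.6% and 41.0% of the thinned cells of clusters 12, 3 and 1, and in 3.80% of cluster 9. JAM3 was detected in 73.3%, 48.1% and 35.4% of clusters 12, 3 and 1, and in 14.2% of cluster 9. The shares of CAV3 and JAM3 therefore differed less between clusters 12 and 3 than that of MYMK. CDON was detected in 12.7% (10.2% to 15.6%) of cluster 12 and 10.2% (8.96% to 11.6%) of cluster 3, with overlapping intervals. CDH11 was detected in 46.5% (43.5% to 49.5%) of cluster 9, 18.5% (16.4% to 20.8%) of cluster 8 and 1.63% (0.785% to 2.98%) of cluster 12. CDH2 was detected in 12.3% of the thinned cells of cluster 9 and in 0 of 613 of cluster 12, which allows a share of up to 0.489% of cells with a UMI at 5000 UMIs. Without thinning, 44.9% of the cells of cluster 9 and 1.12% of cluster 12 had a UMI of CDH2. CDH15 was detected in 2.61% (1.50% to 4.20%) of cluster 12 and in 0.185% (0.0224% to 0.667%) of cluster 9. These intervals cover counting error only.

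**Figure D3:**
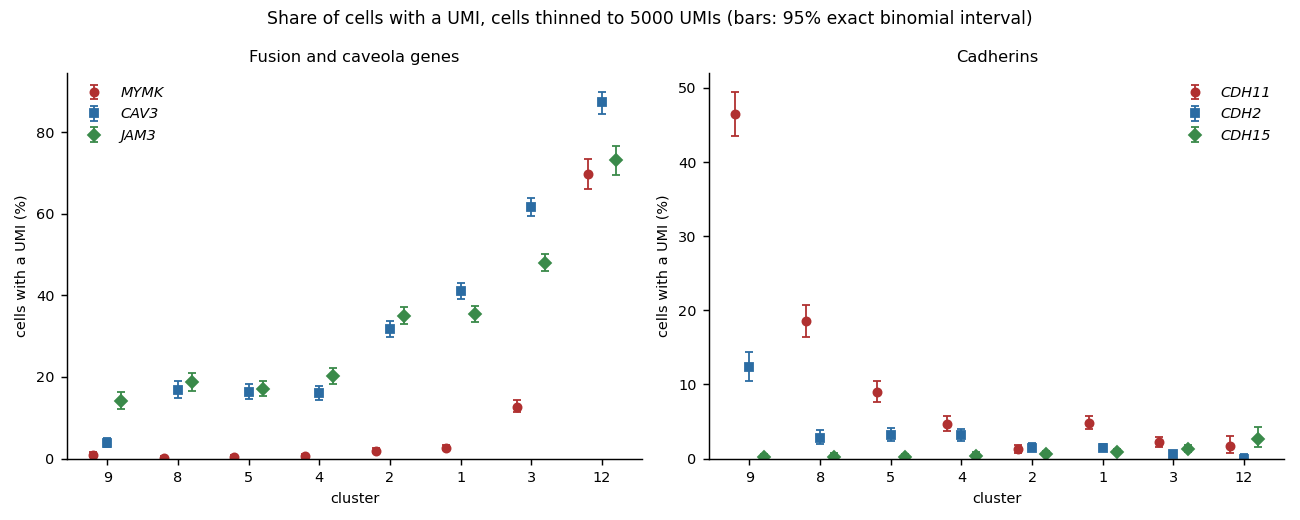
Share of cells with at least 1 UMI (vertical axis, %) of 3 genes of fusion and caveolae (left) and 3 cadherins (right), for cells thinned to 5000 UMIs in 8 clusters. Error bars are 95% exact binomial intervals, which cover counting error only. The shares of MYMK, CAV3 and JAM3 are highest in cluster 12, where no thinned cell had a UMI of CDH2, and the shares of CDH11 and CDH2 are highest in cluster 9.

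The genes were also described without the clusters, by grouping the thinned cells by their own MYOG UMIs. There were 12425 cells with 0 MYOG UMIs, 1325 with 1, 448 with 2, 551 with 3 to 4 and 1247 with 5 or more. MYMK was at 0.0286 in replicate 1 and 0.0277 in replicate 2 in cells with 0 MYOG UMIs, and at 1.56 and 1.84 in cells with 5 or more. Its means in the 5 groups were 0.0281, 0.0971, 0.264, 0.663 and 1.70. The level of MYMK was thus higher in each successive group, in both libraries. CAV3 went from 0.687 to 3.19 and JAM3 from 0.598 to 2.24, also in the same order in each library. CDON was at 0.0722 with 0 MYOG UMIs and reached 0.242 with 3 to 4 and 0.217 with 5 or more, and the order of these last groups differed between the libraries. MYOF was between 0.258 and 0.270 up to 2 MYOG UMIs and at 0.381 with 5 or more. From the first group to the last, the cadherins CDH11 and CDH2 went the other way, CDH11 from 0.240 to 0.0468 and CDH2 from 0.0664 to 0.00952. Neither fell at each step between. CDH15 went from 0.0108 to 0.0375 and NEO1 from 0.164 to 0.101. The groups also differed in their clusters. Of the cells with 5 or more MYOG UMIs, 46.7% were in cluster 3, 40.3% in cluster 12 and 0.481% in cluster 9, against 6.07%, 0.0483% and 8.04% of those with 0.

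**Figure D4:**
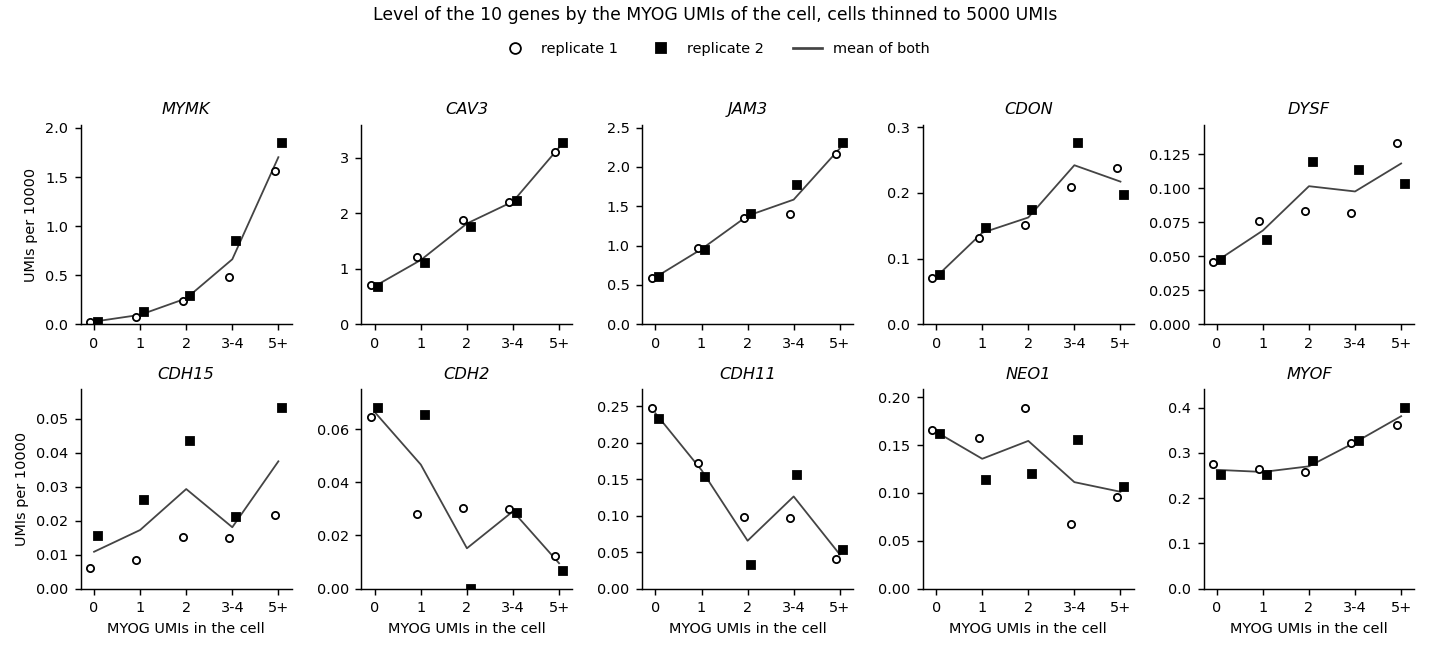
Level of each gene (vertical axis, UMIs per 10000 UMIs) in cells grouped by their MYOG UMIs (horizontal axis), all cells thinned to 5000 UMIs. Circles are replicate 1, squares are replicate 2 and lines join the means. MYMK, CAV3 and JAM3 are higher in each successive group, and CDH11 and CDH2 are lower in cells with 5 or more MYOG UMIs than in cells with 0.

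Within cluster 3, MYMK was detected in 4.64% of cells with 0 MYOG UMIs, and in 8.08%, 10.7%, 17.8% and 23.7% of the successive groups. The interval of the first group (3.25% to 6.40%) did not overlap with that of the last (20.3% to 27.4%). These intervals, and those that follow, pool both libraries and cover counting error only, because cells are not replicates. CAV3, by contrast, was detected in 61.3% (57.7% to 64.8%) of cells of cluster 3 with 0 MYOG UMIs, 58.5% with 1, 65.0% with 2, 62.8% with 3 to 4 and 62.0% (57.9% to 66.0%) with 5 or more. Within this cluster, the share of cells with MYMK was thus higher in each group with more MYOG, whereas the shares of CAV3 in these 5 groups had overlapping intervals. This was not particular to MYMK. JAM3 was detected in 39.7% (36.1% to 43.2%) of cells with 0 MYOG UMIs and in 58.9% (54.8% to 63.0%) of those with 5 or more. CDH11 was detected in 1.46% (0.730% to 2.60%) of cells of cluster 3 with 0 MYOG UMIs and in 2.23% (1.19% to 3.79%) of those with 5 or more. For CDH2 these shares were 0.398% (0.0821% to 1.16%) and 0.687% (0.188% to 1.75%). The intervals of both cadherins overlapped between these groups, with 11 and 13 UMIs of CDH11 and 3 and 4 of CDH2. These counts are too few to tell whether either cadherin was lower with more MYOG within this cluster. In cluster 12 the shares of MYMK were 53.8% with 2, 61.9% with 3 to 4 and 71.9% with 5 or more MYOG UMIs, with overlapping intervals.

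Detection of MYMK was also set against that of other genes in the same thinned cells. In cluster 3, MYOG was detected in 86.5% (81.7% to 90.4%) of cells with MYMK and in 59.4% (57.1% to 61.7%) of cells without. JAM3 was detected in 59.8% (53.6% to 65.9%) and 46.3% (44.0% to 48.7%) of these cells, and CAV3 in 64.5% (58.3% to 70.3%) and 61.2% (58.9% to 63.5%). The intervals thus separated for MYOG and JAM3 but not for CAV3. All intervals of these shares pool the cells of both libraries and cover counting error only, because cells are not replicates. In cluster 12, CDON was detected in 15.2% (11.9% to 18.9%) of cells with MYMK and in 7.03% (3.79% to 11.7%) of those without. For CDON in cluster 3 the intervals overlapped, at 13.5% (9.60% to 18.3%) and 9.76% (8.42% to 11.2%). In cluster 12 those of JAM3 (74.5% and 70.3%), CAV3 (87.9% and 86.5%), MYOG (98.8% and 99.5%) and CDH15 (3.27% and 1.08%) overlapped. In cluster 9, CDH2 was detected in 13.7% (10.9% to 17.1%) of cells with CDH11 and in 11.1% (8.63% to 13.9%) of cells without, so the detection of the 2 cadherins in the same cells was not separated from their detection apart.

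4 wider lists of related genes, with 106 genes in all, were counted in the same fits. From cluster 3 to cluster 12, 30.8% of the 78 genes tested were higher and 20.5% were lower, against 18.2% and 15.6% of all genes tested. Of 21 genes of caveolae, ferlins and membrane repair, 9 (42.9%) were higher and 4 (19.0%) were lower, with a median log2 difference of 0.14. CAVIN4, the muscle cavin, was higher by 1.79 ± 0.11 and TRIM72, a membrane repair protein, by 1.32 ± 0.14, whereas CAV1, the widespread caveolin, fell by 1.26 ± 0.07 and CAVIN3 fell by 0.46 ± 0.05. CAV3 and CAV1 thus changed in opposite directions at this step. Of 30 genes of the fusion machinery, 8 (26.7%) were higher and 6 (20%) were lower (median 0.02). ELMO1, an adaptor of the Rac activator DOCK1, was higher by 2.41 ± 0.19 and the integrin subunit ITGA4 by 1.36 ± 0.24, while the metalloprotease ADAM12 fell by 1.46 ± 0.13 and ITGA3 fell by 1.05 ± 0.15.

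JAM2, the partner of JAM3, and MYMX (myomixer), which acts with MYMK, belong to this list and were named after their values had been seen. JAM2 was higher in cluster 12 by 1.24 ± 0.08, with levels of 0.786 in cluster 12 and 0.355 in cluster 3. MYMX had 16 UMIs in each library in cluster 12 and 12 and 9 in cluster 3, and was higher by 2.20 ± 0.36 (adjusted p = 0.00263).

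Of 16 cadherins, catenins and other junction proteins, 4 (25%) were higher and 3 (18.8%) were lower in cluster 12 than in cluster 3 (median −0.04). JUP (plakoglobin) was higher by 1.32 ± 0.13 and CTNNA3 by 1.03 ± 0.17, while NECTIN1 fell by 1.32 ± 0.36 and CTNNB1 (β-catenin) fell by 0.30 ± 0.06. Of 11 genes listed for signalling around CDON, not all of them direct partners, 3 (27.3%) were higher and 3 (27.3%) were lower (median 0.23). CDC42EP2 was higher by 0.68 ± 0.10 and BNIP2 by 0.37 ± 0.07, and ABL1 fell by 0.60 ± 0.11 and SMO fell by 0.55 ± 0.13. All genes tested had a median of −0.02 at this step.

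From cluster 1 to cluster 3, 17 of the 78 listed genes tested (21.8%) were higher and 26 (33.3%) were lower, against 21.1% and 19.1% of all genes tested. Of 20 genes of caveolae and membrane repair, 6 (30%) were higher and 10 (50%) were lower (median −0.18). TRIM72 was higher by 1.14 ± 0.17 and PACSIN3 by 1.08 ± 0.06. CAVIN2 fell by 1.81 ± 0.30 and CAV1 fell by 0.92 ± 0.04. CAV1 was thus lower, and CAV3 higher, at this step and at the next. CAV3 was also higher at other steps, for which CAV1 is not given. Of 29 genes of the fusion machinery, 4 (13.8%) were higher and 11 (37.9%) were lower (median −0.07). TRIO was higher by 0.57 ± 0.05 and ADGRB1 by 0.48 ± 0.13, and ADAM12 fell by 0.72 ± 0.08 and the tetraspanin CD9 fell by 0.62 ± 0.05.

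Of 16 cadherins, catenins and other junction proteins, 2 (12.5%) were higher and 3 (18.8%) were lower in cluster 3 than in cluster 1 (median −0.06). CDH1 (E-cadherin) was higher by 1.41 ± 0.09 and PKP4 by 0.40 ± 0.12, JUP fell by 1.04 ± 0.12 and CDH13 fell by 0.32 ± 0.05. JUP was thus lower at this step and higher at the next. Of 13 genes listed for signalling around CDON, 5 (38.5%) were higher and 2 (15.4%) were lower (median −0.14). CDC42EP2 was higher by 0.83 ± 0.10 and RGMB by 0.79 ± 0.26, whereas the netrin receptor UNC5B fell by 2.05 ± 0.24 and ABL1 fell by 0.42 ± 0.06. All genes tested had a median of 0.00348 at this step.

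In cluster 9, 22 of 85 listed genes tested (25.9%) were higher and 37 (43.5%) were lower than in the myogenic clusters, against 28.9% and 27.6% of all genes tested. The cadherins, catenins and other junction proteins had 4 (21.1%) higher and 12 (63.2%) lower of 19 (median −0.71), while the median of all genes tested was −0.01. CDH18 was higher by 7.48 ± 0.35, with 186 UMIs in the sums compared. Its level was 0.0683 in cluster 9 and 0.000358 in the myogenic clusters, so the denominator of this difference rests on very few UMIs. NECTIN3 was higher by 0.99 ± 0.07, whereas CDH1 fell by 2.87 ± 0.18 and CTNNA2 fell by 3.50 ± 0.40. CDH11, CDH2 and CDH18 were therefore higher in cluster 9 while CDH1 and CDH15 were lower. Of 21 genes of caveolae and membrane repair, 5 (23.8%) were higher and 11 (52.4%) were lower (median −0.27), with CAVIN3 higher by 0.77 ± 0.05, CAPN2 higher by 0.60 ± 0.04, TRIM72 lower (−3.48 ± 0.30) and BIN1 lower (−1.70 ± 0.04). Of 31 genes of the fusion machinery, 9 (29.0%) were higher and 10 (32.3%) were lower (median −0.02). RND3 was higher by 0.92 ± 0.04 and ITGB1 by 0.77 ± 0.07, and ADGRB1 fell by 2.64 ± 0.21 and ARHGAP26 fell by 2.37 ± 0.11. Of 14 genes listed for signalling around CDON, 4 (28.6%) were higher and 4 (28.6%) were lower (median 0.13). CDC42EP2 was higher by 1.69 ± 0.07 and BOC, a close relative of CDON, by 1.47 ± 0.28. The netrin NTN4 (−1.37 ± 0.04) and UNC5C (−1.27 ± 0.23) were lower.

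Among 10062 genes with at least 500 UMIs, those with a pattern most like each of the 10 genes over the 15 clusters were ranked by Pearson's r of log2 levels, as a description. The clusters share their libraries and differ in depth. MYMK was most like STAC3 (r = 0.991), ARPP21 (0.985) and MYH3 (0.984). CAV3 was most like BIN1 (0.989), SYNC (0.986) and HSPB8 (0.985), and JAM3 was most like MUSK (0.986), DUSP27 (0.982) and TMEM86A (0.977). STAC3, MYH3, BIN1 and MUSK are genes of muscle excitation, contraction or the neuromuscular junction. DYSF was most like CORO6 (0.965), RUM1 (0.950) and OLFML2A (0.944), and MYOF was most like MYH10 (0.948), TBL2 (0.917) and PPP1R12A (0.896).

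CDH11 was most like CD248 (0.953), a surface protein of mesenchymal cells, FBLIM1 (0.946) and NOV (0.943), and CDH2 was most like ROR1 (0.982), UBASH3B (0.961) and TIMP4 (0.956). CDH15 was most like DCLK1 (0.946) and TRIP12 (0.945). CDON was most like CRTAC1 (0.963), GALNT7 (0.960) and COL17A1 (0.951), and NEO1 was nearly equally like TNRC18, TBX18 and TBC1D9 (0.962 each). These lists depend on the shallow clusters, since only 4 of the 30 genes stayed among the 3 most alike when the 11 deeper clusters alone were used.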

How the data were processed

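Per the labels and the paper's methods, the authors aligned reads of 2 libraries to ARS-UCD1.2 with Cell Ranger 3.0.2, counted UMIs and equalized mapped reads per cell between the libraries. They deposited whole-number counts of UMIs per gene and cell, and averages of each gene in 15 clusters, which are UMIs per cell after scaling to a common total and are named as the authors' averages. Their fold changes and p-values were not used. The averages fixed the cluster of all 19096 cells, and UMI sums rebuilt from this assignment differed from them in 0 of 252240 pairs of gene and cluster. The library was read from the barcode suffix.

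The 10 genes and all gene lists were chosen with earlier results of these data known. Counts were summed per cluster and library and tested with edgeR 4.0.16 (TMM, filterByExpr). Library numbers pair the sums, since both clusters of a comparison come from the same libraries. Over genes with at least 20 UMIs, the library deviations correlated with r from 0.396 to 0.621. The main fit had no block. With a block, fewer degrees of freedom are left to estimate the spread. Some p-values were extreme with it, and the cause of this was not tested. For CAV3 between clusters 12 and 3, the adjusted p of edgeR was 7.34e-269 with the block and 1.02e-05 without it. Thresholds passed only with the block are therefore to be read with caution. Doublets (1395, Scrublet score over 0.25) were kept. Alternatives were DESeq2 1.42.0, other scaling or filters, the replicate block, 1 fit over all clusters, leaving out doublets or cells under 2000 UMIs, and Leiden clusters formed without the 10 genes. After the data were seen, UMIs outside ribosomal protein genes were added as a denominator. From each list, the text names the 2 genes with the largest and the 2 with the smallest log2 fold change among those called, with at least 100 UMIs and the same sign in both libraries. For each of the 10 genes the 3 genes most like it are named, except 1 that is not reported here.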

Additional observations from a re-analysis of the deposited data

How the results depend on the processing

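Of 43 calls of the 10 genes, 0 reversed in 387 repeats under 9 alternatives, and 12 repeats, of 7 calls, lost the threshold, as given beside the results. Leaving out cells under 2000 UMIs removed no cell of the clusters compared. The repeats under that alternative are therefore copies of the main fit and say nothing about its stability. The direction changed in these results that were not called: between clusters 12 and 3, on the log2 scale, NEO1 without TMM (−0.0584) and with Leiden clusters (−0.00793) and CDH11 with Leiden clusters (−0.19); between clusters 5 and 8 without a filter, CDH15 (0.0121) and CAV3 (0.0139); and between clusters 4 and 5, without doublets, MYMK (−0.0456), CDH15 (0.0171), CAV3 (0.0198) and NEO1 (0.0441), and with Leiden clusters, MYMK (−0.15). Without TMM the median of all genes moved to −0.12 between clusters 12 and 3. DESeq2 called fewer genes of all those tested, 2268 instead of 3650 between clusters 12 and 3, 2860 instead of 4563 between 3 and 1, 2398 instead of 3812 between 1 and 8, 1673 instead of 3120 between 5 and 8, 982 instead of 1859 between 4 and 5, and 2144 instead of 3497 between 2 and 4. Leiden clusters gave 2376 between 1 and 8. The replicate block, in which the library pairs the sums, gave 3979 between 4 and 5 and 5448 between 2 and 4. It changed no call of the 10 genes other than those given beside the results. Of the 10 genes, DESeq2 called 1 instead of 2 between 5 and 8, and between 4 and 5 there were 2 called without TMM, 3 with the replicate block and 2 without doublets, instead of 1. Of the 30 genes most like the 10, 4 stayed with the deeper clusters and 17 with a pseudocount of 0.1. The cause of these differences was not tested. Leaving out a library leaves 1 sum per cluster and no test, so each library's values are given in place of it. Some levels rested on few UMIs, such as 7 of CDH2 in cluster 12, 6 of CDH15 in cluster 9 and 8 of MYMK in cluster 11.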
